A study of Mus musculus with 6 samples.

Results

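The hepatic efflux and bile transporters described here are 10 genes of the 24411 gene symbols in a liver RNA-seq count table, chosen by name. They are the canalicular exporters Abcc2, Abcb4 and Abcb11, the basolateral exporters Abcc3, Abcc4 and Abcc6, and the uptake carriers Slc10a1, Slco1a1, Slco1b2 and Slco2b1. All 10 passed the filter on low counts, Abcc4 only through the genotype in which it was high, so none is left out of the comparison. The livers came from 3 p62+/+ mice, which are wild type, and 3 p62S351E/+ mice, all at postnatal day 19 (P19). The p62S351E/+ mice are heterozygous for a Sqstm1 allele, the gene for p62, made by prime editing of embryonic stem cells so that Glu stands in for Ser351, a residue of the KEAP1-binding stretch, and imitates its phosphorylation. They descend from 1 chimeric male by in vitro fertilization and are described as growth-retarded and malnourished, so genotype and nutrition cannot be told apart in these samples. The labels give no sex and no treatment. The comparison addressed here is which transporter transcripts differed between the genotypes, and whether export and uptake differed alike.

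Hepatocytes are polarized cells that take up bile acids and organic anions from sinusoidal blood and secrete bile through the canalicular membrane. ATP-binding cassette (ABC) pumps drive export, those in the canalicular membrane into bile and those in the basolateral membrane back into blood, whereas most solute carriers (SLC) serve uptake. When canalicular secretion fails, basolateral pumps provide another way out of the cell. Phosphorylated p62 binds KEAP1, the adaptor that marks the transcription factor NRF2 for degradation, and several of the ABCC pumps, which carry glutathione and glucuronic acid conjugates, are known NRF2 targets.

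Each library held between 8696712 and 10341622 estimated counts. Leaving out Rn45s, Lars2 and Mir6236, between 134911 and 315436 remained, and the 10 transporters together had between 1026 and 1687. The 8 hepatocyte markers (among them Alb, Ttr and Trf) summed to between 7905 and 20164 counts and none was at 0 in any library, as the liver label requires. The 10 brain markers summed to between 2445 and 2809 counts in p62+/+ livers, against 26, 35 and 2606 in p62S351E/+ mice 1, 2 and 3, with Snap25, Gfap, Gria2 and Camk2a at 0 in p62S351E/+ mice 1 and 2. Xist, the transcript of the inactive X chromosome of females, ranged from 70.8 to 1505 counts among p62+/+ mice and was at 1, 0 and 1537 counts in p62S351E/+ mice 1, 2 and 3. Results below are therefore also given without p62S351E/+ mouse 3 and for this mouse alone where these differ. In normalized counts the hepatocyte markers summed to between 10204 and 11366 in p62+/+ livers and to 15052, 25405 and 10554 in p62S351E/+ mice 1, 2 and 3. Erythroid markers summed to between 136 and 195 normalized counts in p62+/+ and between 56.2 and 133 in p62S351E/+ livers, which nearly touch, while cholangiocyte (23.3 to 82.1 against 22.5 to 70.5), Kupffer cell (71.4 to 74.3 against 72.8 to 89.5) and endothelial markers (113 to 179 against 121 to 190) overlapped. The part of these other transcripts in the results was not tested. The edited gene Sqstm1 had 77.8, 73.0 and 86.4 normalized counts in the p62+/+ mice and 104.7, 97.0 and 89.9 in the p62S351E/+ mice, without overlap (log2 fold change 0.30, adjusted p = 0.498, edgeR). This checks no label, since the counts do not separate transcripts of the edited and the wild-type allele.

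Transcripts of both Abcc3 and Abcc4 rose in the p62S351E/+ livers, about 9.75-fold and 16.9-fold. Among the 10 genes, none of the uptake carriers and none of the canalicular exporters passed the test. A gene was called when edgeR's quasi-likelihood test gave an adjusted p (Benjamini-Hochberg over all 5945 genes tested) below 0.05 and the absolute log2 fold change exceeded 1. By this rule 2 of the 10 transporters were called higher, against 0.841% of all genes tested, and 0 were called lower, against 0.0841%. Of the 2 called, Abcc4 passed the filter on low counts only through the p62S351E/+ livers. At an unadjusted p below 0.05, 4 of the 10 were higher and 0 lower with edgeR, against 9.02% and 5.55% of all genes tested. DESeq2 and limma-voom called 0 of the 10 lower, against 0.0491% and 0.219% of the genes they tested, so a count of 0 is what so low a share gives for 10 genes. In bulk RNA of a liver, fewer cells of a type and less RNA per cell cannot be told apart. Normalized counts, as used throughout, are counts divided by a scaling factor for each library, and they compare mice within a gene but not genes with each other.

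**Figure D1:**
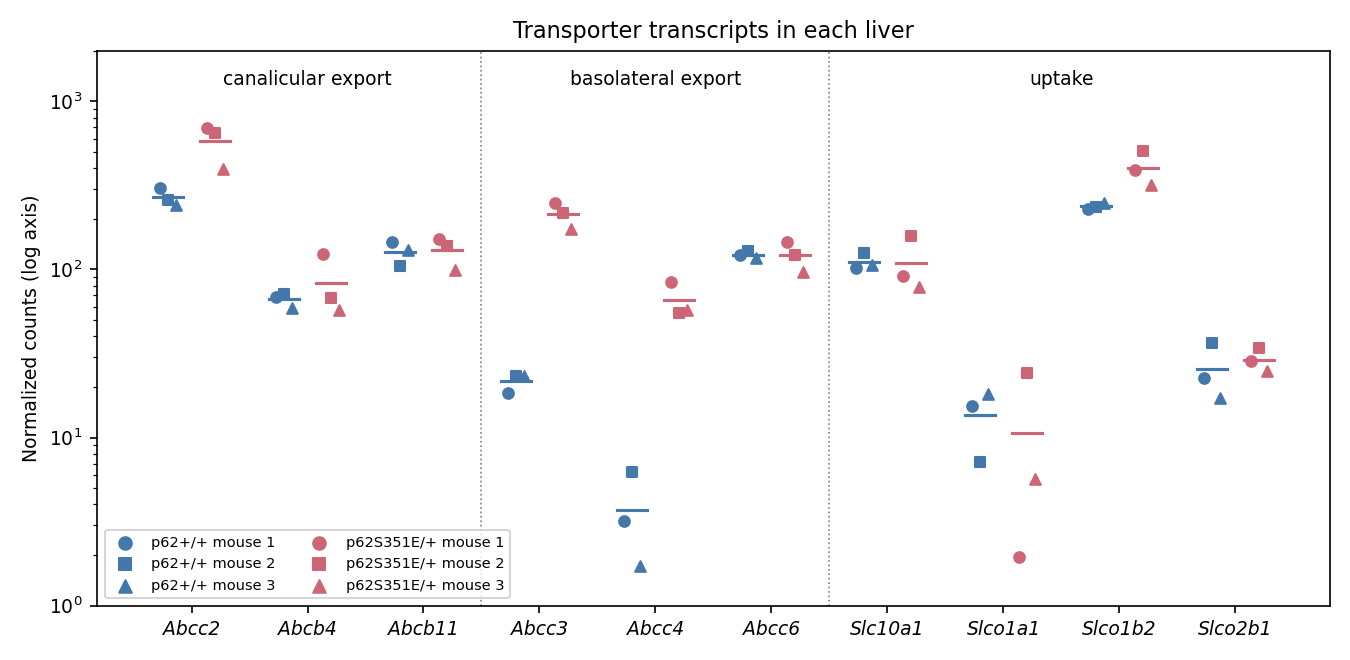
Normalized counts (log axis) of the 10 transporters in each liver, with p62+/+ mice in blue, p62S351E/+ mice in red, the mouse number by symbol and the group mean as a bar. For Abcc3, 18.5 to 23.3 in p62+/+ mice stand against 175 to 248 in p62S351E/+ mice, and for Abcc4 1.73 to 6.21 stand against 55.4 to 83.8, while Abcb11, Abcc6 and Slc10a1 overlap between the genotypes.

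Abcc3 encodes MRP3, a basolateral pump that returns glucuronide conjugates, including those of bilirubin and bile acids, to the blood. It lies on chromosome 11 of GRCm38 (mm10), minus strand, from 94343295 to 94392997. The p62+/+ mice had 23, 30 and 27 counts and the p62S351E/+ mice 130, 171 and 226 counts, so the groups stood apart before any scaling. After scaling these became 18.5, 23.3 and 23.3 against 248, 215 and 175 normalized counts. The p62+/+ values lay within a few counts of each other, and the lowest p62S351E/+ mouse, mouse 3, was still far above them. The means were 21.7 ± 2.80 and 213 ± 36.3 normalized counts (SD, 3 mice per genotype), a fold of 9.75 (95% confidence interval 6.65 to 14.3). The log2 fold change was 3.29 with a standard error of 0.24 (adjusted p = 0.00051, edgeR quasi-likelihood test).

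Abcc3 was called higher in every one of the 18 alternative settings that changed the fit, with log2 fold changes between 2.56 and 3.41 and adjusted p-values (edgeR, DESeq2 or limma) up to 0.0176. Without p62S351E/+ mouse 3 its log2 fold change was 3.41, and mouse 3 alone against the p62+/+ mice gave 3.02. The rise was present in p62S351E/+ mice 1 and 2, whose libraries were nearly free of brain transcripts, and in mouse 3, whose library carried them. All p62+/+ libraries carried them too, and the part of these transcripts in the rise was not tested. Scaling by library size alone gave the lowest value, 2.56. Under it the median over all genes tested was -0.68, and Abcc3 stood 3.24 above that median.

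Abcc4 encodes MRP4, a basolateral pump for cyclic nucleotides, sulfated steroids and, together with glutathione, bile acids. It lies on chromosome 14, minus strand, from 118482692 to 118706219. Its transcript was scarce in the p62+/+ livers, at 4, 8 and 2 counts, and the p62S351E/+ livers had 44, 44 and 74 counts. In normalized counts the p62+/+ mice had 3.21, 6.21 and 1.73 and the p62S351E/+ mice 83.8, 55.4 and 57.3. All 3 p62S351E/+ mice exceeded all p62+/+ mice, and mice 2 and 3 were nearly equal. The means were 3.72 ± 2.28 and 65.5 ± 15.9 normalized counts (SD, 3 mice per genotype). The fold of 16.9 had a wide 95% confidence interval, 8.63 to 33.1, with p62+/+ counts this few. The log2 fold change was 4.08 with a standard error of 0.42 (adjusted p = 0.00509, edgeR).

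In all 17 alternative settings that tested Abcc4 it was called higher, with log2 fold changes between 3.37, with library size only, and 4.66, without p62+/+ mouse 2, the p62+/+ mouse with the most counts. The adjusted p (edgeR, DESeq2 or limma) reached at most 0.0415, without p62+/+ mouse 1. The rise was 4.16 without p62S351E/+ mouse 3 and 3.90 for mouse 3 alone. When 10 counts were required in every library, Abcc4 was no longer tested.

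Because Abcc4 rose, its upstream sequence is shown, together with the short stretch of Abcc2 that holds the same letters. RefSeq promoter windows of GRCm38.p6, from 250 bases before to 50 bases after a start site, were at hand for 8 of the 10 genes (12 windows), and Abcc3 and Abcc6 had none. They were searched on both strands for TGACNNNGC, the core letters of the antioxidant response element to which NRF2 binds. These letters stood in both Abcc4 windows and in the Abcc2 window and in no window of the other 6 genes. Of all 32851 windows, 12.4% held them, so a match by itself is common and is not evidence of a site. The capitals mark the match, which for the first Abcc4 start reads on the opposite strand, 25 to 17 bases before the start, and for the second Abcc4 start on the gene's own strand, 23 to 15 bases before it. The Abcc4 stretches are the 150 bases before each start, chr14:118706220-118706369 and chr14:118676932-118677081, both printed along the minus strand. The Abcc2 stretch is chr19:43782200-43782228 on the plus strand, with the match 98 to 90 bases before the RefSeq start but downstream of a GENCODE start that lies 116 bases earlier.
Abcc4 1: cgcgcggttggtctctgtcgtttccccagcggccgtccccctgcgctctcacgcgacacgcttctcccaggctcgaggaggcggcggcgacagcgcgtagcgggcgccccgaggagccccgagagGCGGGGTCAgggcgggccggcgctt
Abcc4 2: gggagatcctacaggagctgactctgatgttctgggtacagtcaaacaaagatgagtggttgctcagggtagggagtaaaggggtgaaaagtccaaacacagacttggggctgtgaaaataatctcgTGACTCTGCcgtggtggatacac
Abcc2 1: ctcactgggaTGACATAGCattcatctag

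The related letters TGAGNNNGC, which differ in the fourth letter only, so that both patterns cannot match at the same place on a strand, stood in the first Abcc4 window, in all 3 Slco2b1 windows and in 1 of the 2 Slc10a1 windows, and in 17.6% of all windows. Slco2b1 and Slc10a1 did not pass the test of the genotype difference. No binding of any factor was measured in these livers.

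Abcc6, the third basolateral exporter, showed no such difference. It encodes MRP6, whose loss causes ectopic mineralization in pseudoxanthoma elasticum, and lies on chromosome 7, minus strand, from 45967555 to 46030302. The p62+/+ mice had 122, 128 and 117 and the p62S351E/+ mice 145, 122 and 96.8 normalized counts, and the groups overlapped. Its log2 fold change was -0.01 with a 95% confidence interval of -0.51 to 0.48 (adjusted p = 0.977, edgeR). This interval contains neither the fold of Abcc3 nor that of Abcc4, and their intervals start at 2.73 and 3.11 on the log2 scale.

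Abcc2, the canalicular counterpart of Abcc3, encodes MRP2, the pump that secretes conjugated bilirubin and glutathione conjugates into bile. It lies on chromosome 19, plus strand, from 43782192 to 43840740. The counts overlapped before scaling, with 381, 333 and 280 in the p62+/+ mice and 363, 514 and 510 in the p62S351E/+ mice. Scaling set them apart, at 306, 259 and 242 against 691, 648 and 395 normalized counts. Here p62S351E/+ mouse 3 lay well below the other two p62S351E/+ mice and nearest to the p62+/+ range. The means were 269 ± 33.2 and 578 ± 160 normalized counts (SD, 3 mice per genotype), and the fold was 2.15 (95% confidence interval 1.42 to 3.26). On the log2 scale the difference was 1.10 with a standard error of 0.26, and it did not pass after adjustment (unadjusted p = 0.0027, adjusted p = 0.118, edgeR).

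The call of Abcc2 depended on the tool and on 1 library. It passed with limma-voom, at a log2 fold change of 1.07 and an adjusted p of 0.036, and without p62S351E/+ mouse 3, at 1.32 and 0.000557 (edgeR). The value for mouse 3 alone was 0.57, and with Xist as a covariate it was 0.76. With at least 10 counts in every library the adjusted p was 0.0314 (edgeR) but the log2 fold change, 0.83, stayed under the bound of 1. With library size only it fell to 0.33. Under that scaling the median over all genes tested was -0.68. Abcc2 stood 1.01 above that median, against 1.13 above the median in the main fit. Mouse 3 also differed from the other p62S351E/+ mice in its brain markers, its Xist count and its lower normalized hepatocyte markers, and their part in this result was not tested. The log2 fold change stayed above 0 in all 18 of these settings.

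Abcb11 encodes the bile salt export pump (BSEP), which drives the flow of bile salts into the canaliculus, and lies on chromosome 2, minus strand, from 69238282 to 69342616. The p62+/+ mice had 146, 105 and 130 and the p62S351E/+ mice 152, 139 and 99.9 normalized counts. The ranges were nearly the same, and the log2 fold change was 0.03 (95% confidence interval -0.51 to 0.58, adjusted p = 0.957, edgeR). Exons of Gm13613 and Gm13614 overlap Abcb11 on the other strand, and whether the counting used strand is not given in the sources used here.

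Abcb4 encodes the canalicular floppase that delivers phosphatidylcholine to bile, and lies on chromosome 5, plus strand, from 8893717 to 8959231. It had 69.0, 71.4 and 58.7 normalized counts in the p62+/+ mice and 124, 67.9 and 57.3 in the p62S351E/+ mice. Only p62S351E/+ mouse 1 stood above the p62+/+ range. The log2 fold change was 0.31 (95% confidence interval -0.38 to 1.01, adjusted p = 0.621, edgeR), and it was -0.07 without p62S351E/+ mouse 1. Its counts were not whole numbers in 5 of the 6 libraries, which means that RSEM divided reads between Abcb4 and a related sequence.

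Slco1b2 encodes OATP1B2, the sinusoidal carrier of unconjugated bile acids, bilirubin and many drugs, and lies on chromosome 6, plus strand, from 141629518 to 141686646. Of the uptake carriers it alone had groups that did not overlap. Its counts overlapped before scaling, at 284, 304 and 287 for p62+/+ and 204, 402 and 408 for p62S351E/+ mice. Normalized counts were 228, 236 and 248 in the p62+/+ mice and 388, 506 and 316 in the p62S351E/+ mice. The p62+/+ mice were close together and the p62S351E/+ mice were spread. The fold was 1.70 (95% confidence interval 1.18 to 2.46), or 0.77 on the log2 scale with a standard error of 0.23, and did not pass after adjustment (unadjusted p = 0.0101, adjusted p = 0.216, edgeR). The adjusted p was 0.00601 without p62S351E/+ mouse 3, with a log2 fold change of 0.92 that remained under 1. With library size only the value was 0.06, and mouse 3 alone gave 0.43. The median over all genes tested was -0.68 with library size only. Slco1b2 stood 0.74 above it, against 0.80 above the median in the main fit.

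Slc10a1 encodes NTCP, the sodium-dependent carrier of conjugated bile acids, and lies on chromosome 12, minus strand, from 80953183 to 80968705. It had 102, 126 and 106 normalized counts in the p62+/+ mice and 91.4, 157 and 79.0 in the p62S351E/+ mice. The p62S351E/+ mice lay on both sides of the p62+/+ mice, and the log2 fold change was -0.03 (95% confidence interval -0.68 to 0.62, adjusted p = 0.971, edgeR).

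Slco1a1 encodes OATP1A1, an organic anion carrier that in mice becomes abundant in the livers of mature males. It lies on chromosome 6, minus strand, from 141907282 to 141946962. At P19 it had 15.4, 7.17 and 18.1 normalized counts in the p62+/+ mice and 1.94, 24.2 and 5.65 in the p62S351E/+ mice. The lowest p62S351E/+ value rests on 1.02 estimated counts, and the p62S351E/+ mice were widely spread. The interval of the log2 fold change ran from -2.12 to 1.44 around -0.34 (adjusted p = 0.845, edgeR). Neither a 2-fold rise nor a 2-fold fall is therefore excluded. Counts of Slco1a1 were not whole in 5 of the 6 libraries. Slco2b1, which encodes OATP2B1, a carrier of sulfated steroids, lies on chromosome 7, minus strand, from 99657804 to 99711340 and overlaps Gm15635 and Gm34280 on the other strand. Its normalized counts were 22.5, 36.5 and 17.3 in the p62+/+ mice and 28.6, 34.0 and 24.8 in the p62S351E/+ mice, with the p62S351E/+ mice inside the p62+/+ range. The log2 fold change was 0.19 (95% confidence interval -0.54 to 0.92, adjusted p = 0.786, edgeR).

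**Figure D2:**
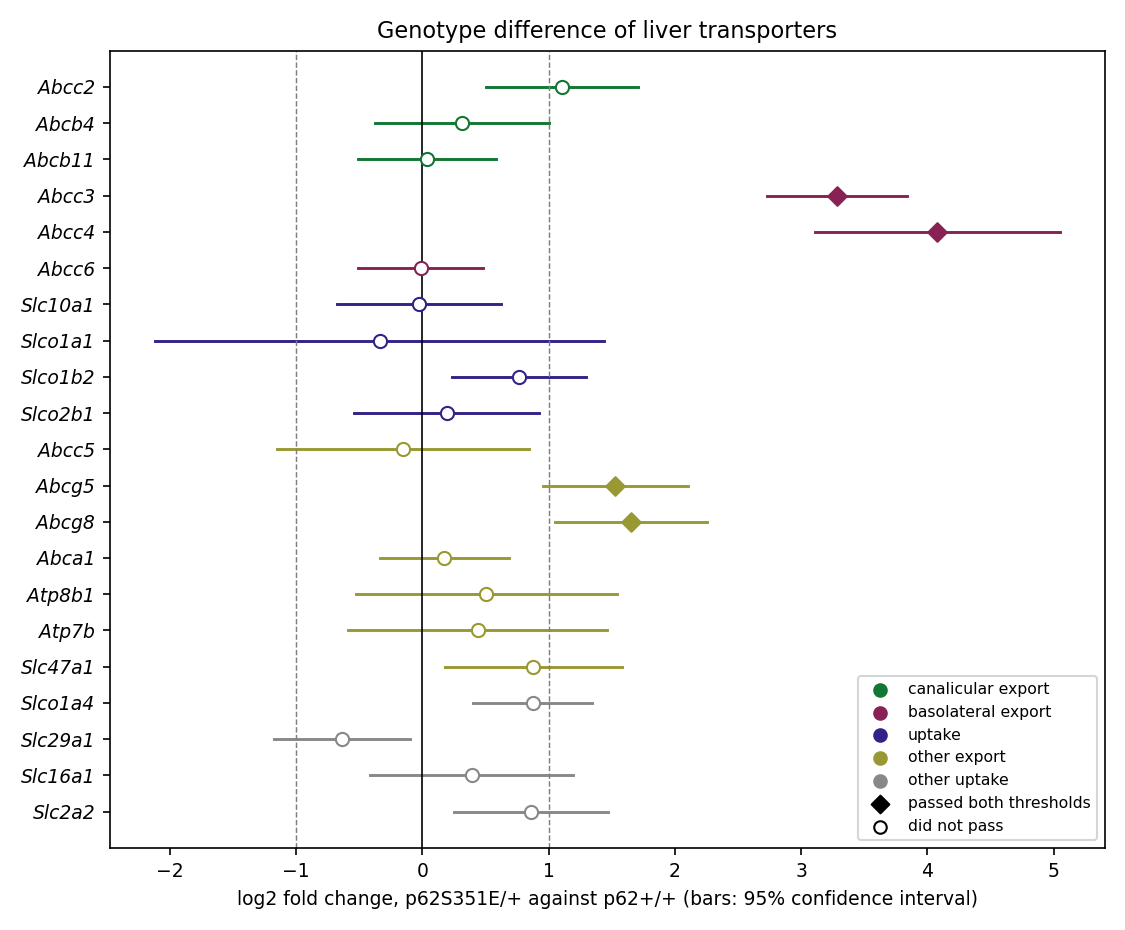
Log2 fold changes of p62S351E/+ against p62+/+ livers with 95% confidence intervals for the 10 transporters and for other liver transporters tested, coloured by class, with filled diamonds where both thresholds were passed. Abcc3 (3.29) and Abcc4 (4.08) stand to the right of every other interval, Abcg5 and Abcg8 are the other 2 called, and the remaining intervals of the 10 transporters reach below 1.

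By role, the 6 exporters had a median log2 fold change of 0.71 with 2 called higher, the 4 uptake carriers a median of 0.08 with 0 called, and all genes tested a median of -0.03. The 2 called, Abcc3 and Abcc4, are 2 of the 3 basolateral exporters, while the third, Abcc6, was at -0.01. Of the 3 canalicular exporters 0 were called. Their median was 0.31, with Abcc2 at 1.10 (unadjusted p = 0.0027, edgeR). Of all genes tested 0.841% were called higher. The classes were compared by counts and not by a test. Normalized counts of the genotypes did not overlap for 4 of the 10 transporters (Abcc2, Abcc3, Abcc4 and Slco1b2), all higher in p62S351E/+ mice, against 12% of all genes higher and 14.7% lower without overlap. With 3 mice per genotype, the smallest two-sided p of an exact permutation test is 0.1.

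To contrast export with uptake inside each library, where the scaling cancels, each exporter was divided by each uptake carrier. Of the 24 log2 ratios, 10 did not overlap between genotypes with p62S351E/+ higher and 2 with p62S351E/+ lower. All 4 ratios of Abcc3 were among the higher ones, with differences of mean log2 ratio between 2.52 and 4.05, and so were all 4 of Abcc4, between 3.39 and 4.91. Abcc2 gave 2 of the higher ratios, to Slc10a1 and to Slco2b1. Those in the other direction were Abcb11 and Abcc6 over Slco1b2, with differences of -0.71 and -0.77. Abcb4 gave none in either direction.

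The carrier in the denominator sets how unusual such a ratio is. Over Slc10a1, 3 of the 6 exporters were higher without overlap, against 11.3% of all genes, and 0 lower, against 3.5%. Over Slco2b1 3 of 6 were higher, against 3.65%, and 0 lower, against 7.91%. Over Slco1b2, 2 of 6 were higher, against 1.95% of all genes, and 2 of 6 lower, against 47.2%, so the lower ratios of Abcb11 and Abcc6 were ordinary for genes divided by Slco1b2. Over Slco1a1, 2 of 6 were higher, against 2.17%, and 0 lower, against 0.236%.

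The ratio of Abcc3 to Slco1b2 shows the contrast between the exporter and the carrier that both had higher values in p62S351E/+ mice. Its log2 value was -3.60, -3.32 and -3.39 in the p62+/+ mice and -0.65, -1.23 and -0.85 in the p62S351E/+ mice. The p62S351E/+ mice thus had more Abcc3 relative to Slco1b2 in each liver, mouse 3 included.

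The mean log2 CPM (counts scaled by the TMM-adjusted library size) of the 6 exporters minus that of the 4 carriers was 0.07, 0.12 and -0.11 in the p62+/+ mice and 2.04, 0.65 and 1.30 in the p62S351E/+ mice. The groups did not overlap, and their means were 0.02 ± 0.12 and 1.33 ± 0.69 (SD, 3 mice per genotype), a difference of 1.31. Abcc3 and Abcc4, with log2 fold changes of 3.29 and 4.08, enter this score, and it was not computed for all exporters but these. With the basolateral exporters in place of all 6 the means were -1.18 ± 0.23 and 1.03 ± 0.69, a difference of 2.21. With the canalicular exporters they were 1.23 ± 0.14 and 1.63 ± 0.71, and p62S351E/+ mouse 2 at 0.99 lay below the p62+/+ mice, so these groups overlapped. Slco1a1 had a single count in p62S351E/+ mouse 1. With Slco1a1 left out of the uptake set, which lowers the value of every mouse, the means were -0.63 ± 0.14 and 0.43 ± 0.41, the groups still did not overlap, and their difference was 1.06. When normalized counts were summed before the logarithm, so that abundant genes weigh most, the difference was 0.46.

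**Figure D3:**
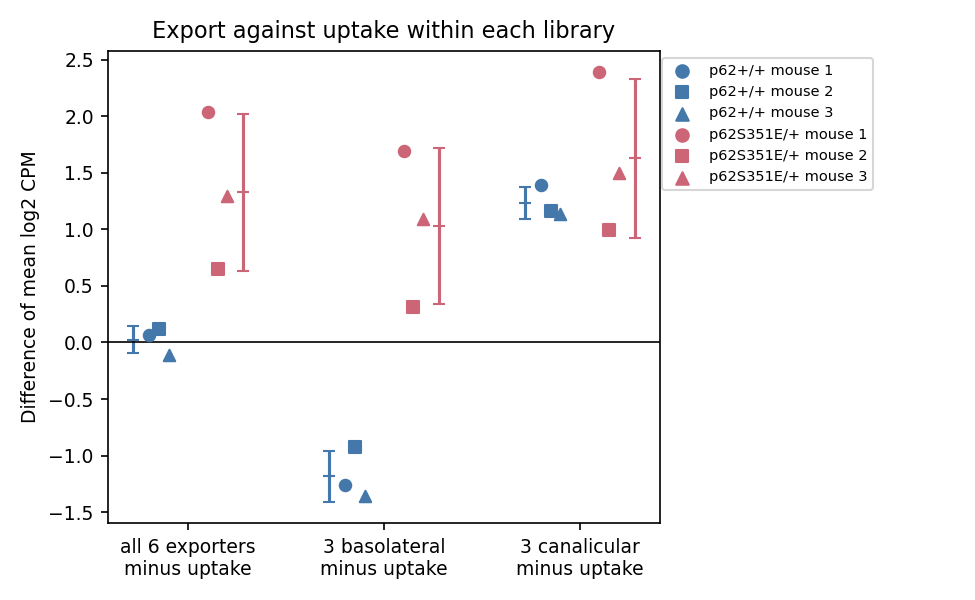
Mean log2 CPM of the exporters minus that of the 4 uptake carriers in each liver (points, with mean and SD as bars), for all 6, the 3 basolateral and the 3 canalicular exporters. The genotypes separate for all 6 exporters (difference 1.31) and for the basolateral ones (2.21), both of which include Abcc3 and Abcc4. They overlap for the canalicular ones (0.40).

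Dividing counts by transcript length allows levels to be set beside each other between genes. On normalized counts per kb the p62+/+ order was Slco1b2 (71.7), Slc10a1 (63.6), Abcc2 (33.5), Abcb11 (25.3), Abcc6 (24.6), Abcb4 (16.3), Slco2b1 (5.80), Abcc3 (4.33), Slco1a1 (3.48) and Abcc4 (0.650). Slco1b2 and Slc10a1 overlapped between mice, as did Abcb11 with Abcc6 and Slco2b1, Abcc3 and Slco1a1 with each other, whereas Abcc4 was below all others in each liver. In the p62S351E/+ livers Abcc3 had moved from the eighth to the fourth place, at 42.5 normalized counts per kb, above Abcb11 (25.9), and Abcc4 from the last to the eighth, at 11.5. Abcc2 at 72.0, Slc10a1 at 62.5 and Abcc3 overlapped between mice there, and Slco1b2 remained first at 122.

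As a share of the counts per kb of all 6 exporters, Abcc3 and Abcc4 together made up 3.77%, 5.62% and 5.02% in the p62+/+ mice and 26.7%, 26.1% and 30.5% in the p62S351E/+ mice. This was 4.80 ± 0.948% against 27.8 ± 2.38% (SD, 3 mice per genotype), with p62S351E/+ mouse 3 highest. Most of it was Abcc3, whose share went from 4.18 ± 0.794% to 21.9 ± 1.62%. The shares of Abcb11 (24.1 ± 3.22% to 13.2 ± 0.538%) and Abcc6 (23.6 ± 1.76% to 12.5 ± 0.606%) were correspondingly smaller although their normalized counts differed little. Abcc2 kept the largest share in every liver, between 30.5% and 39.9%. Shares of a fixed total depend on each other, and no test was run on them.

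Among the uptake carriers Slco1b2 and Slc10a1 made up most of the counts per kb in each liver. The share of Slco1b2 was 50.6%, 46.5% and 52.0% in the p62+/+ mice and 66.5%, 59.6% and 64.6% in the p62S351E/+ mice. That of Slc10a1 was 43.9 ± 2.58% and 31.7 ± 2.90% (SD, 3 mice per genotype).

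**Figure D4:**
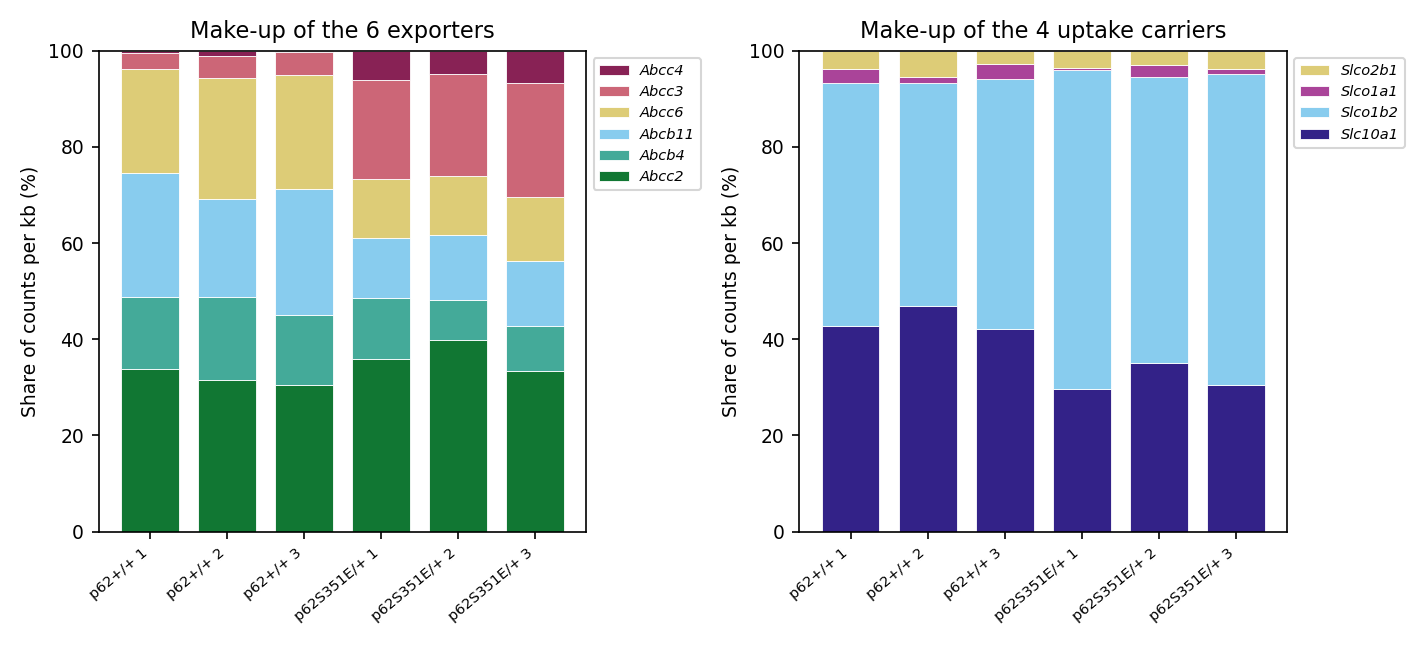
Share (%) of each gene in the counts per kb of transcript of the 6 exporters (left) and of the 4 uptake carriers (right), with 1 stacked bar per liver. Abcc3 and Abcc4, at the top on the left, hold 3.77% to 5.62% in p62+/+ and 26.1% to 30.5% in p62S351E/+ livers, and on the right Slco1b2 takes a larger share in each p62S351E/+ liver.

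Of 21 other transporters of the liver listed for comparison, 12 had enough counts to be tested, 2 were called higher, against 0.841% of all genes, and 0 lower, against 0.0841%. Those called were Abcg5 and Abcg8, which form the canalicular pump for cholesterol and plant sterols. By role, however, the median log2 fold change was 0.50 over the 7 other exporters tested and 0.86 over the 5 other uptake carriers. Outside the 10 genes the median of the uptake carriers was therefore not the lower one. Without overlap, 3 of the 7 and 3 of the 5 were higher, against 12% of all genes tested. In the same way 0 and 1 were lower, against 14.7%. Abcg5 had 20.1, 32.6 and 20.7 normalized counts in the p62+/+ mice and 70.5, 70.6 and 71.3 in the p62S351E/+ mice, which is 1.53 on the log2 scale with a standard error of 0.25 (adjusted p = 0.0346, edgeR). Abcg8 had 18.5, 14.7 and 25.9 against 66.6, 64.3 and 55.8, or 1.65 on the log2 scale with a standard error of 0.26 (adjusted p = 0.0312, edgeR). The genes lie head to head on chromosome 17, from 84658234 to 84683011 and from 84676302 to 84700333, and share bases on opposite strands, so reads of one may be counted for the other. Both calls were lost when any mouse other than p62S351E/+ mouse 3 was left out, with the replicate block, with Xist as a covariate and with library size only. The log2 fold changes in these settings lay between 1.41 and 1.80 for Abcg5 and between 1.49 and 1.90 for Abcg8, except with library size only. There they were 0.89 and 0.96, and the median over all genes tested was -0.68. The adjusted p over all alternatives reached 0.421 for Abcg5 and 0.418 for Abcg8.

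Of the members that did not pass, those with the smallest p that are given here were the organic anion carrier Slco1a4 (log2 fold change 0.87, adjusted p = 0.117), the glucose carrier Slc2a2 (0.86, adjusted p = 0.224) and the cation exporter Slc47a1 (0.88, adjusted p = 0.266), all by edgeR. For each of them all p62S351E/+ mice had more normalized counts than all p62+/+ mice. Counts of Slco1a4 were not whole in 5 of the 6 libraries. Slc29a1, a nucleoside carrier named here because it was the member with lower values in all p62S351E/+ mice, had a log2 fold change of -0.64 (adjusted p = 0.288, edgeR). Low counts kept Abcc1, Abcb1a, Abcb1b, Abcg2, Slc51a, Slc51b, Slc10a2, Slc22a5 and Slc22a7 out of the test. The basolateral exporter of bile acids formed by Slc51a and Slc51b had at most 1 count in any liver.

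The 13 regulators of transporter genes listed included the bile acid receptor gene Nr1h4, the xenobiotic receptor gene Nr1i2 and the NRF2 gene Nfe2l2. All 13 were tested, and edgeR called 0 in either direction, against 0.925% of all genes. A count of 0 is what so low a share gives for 13 genes. Without overlap of the normalized counts, 7 of the 13 were higher, against 12% of all genes, and 0 lower, against 14.7%. At an unadjusted p below 0.05, 5 of the 13 were higher, against 9.02% of all genes, and 0 lower, against 5.55%. The smallest p was that of Nr5a2, the gene of LRH-1, which had a log2 fold change of 1.38 (adjusted p = 0.0878, edgeR). Nr1i3, the gene of the constitutive androstane receptor, had 16.3, 49.9 and 50.9 normalized counts in the p62+/+ mice and 136, 118 and 109 in the p62S351E/+ mice (1.63, adjusted p = 0.131, edgeR). Counts of Nr1i3 were not whole in all 6 libraries. Nr5a2 and Nr1i3 both passed with limma-voom, with at least 10 counts in every library and without p62S351E/+ mouse 3. These settings called 2.05%, 2.99% and 5.21% of all genes tested higher. Nr0b2 (1.22, adjusted p = 0.23), Hnf4a (0.73, adjusted p = 0.241), Ahr (0.96, adjusted p = 0.279) and Rxra (0.47, adjusted p = 0.343, all edgeR) followed. The value of Rxra was -0.23 with library size only, where the median over all genes tested was -0.68.

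**Figure D5:**
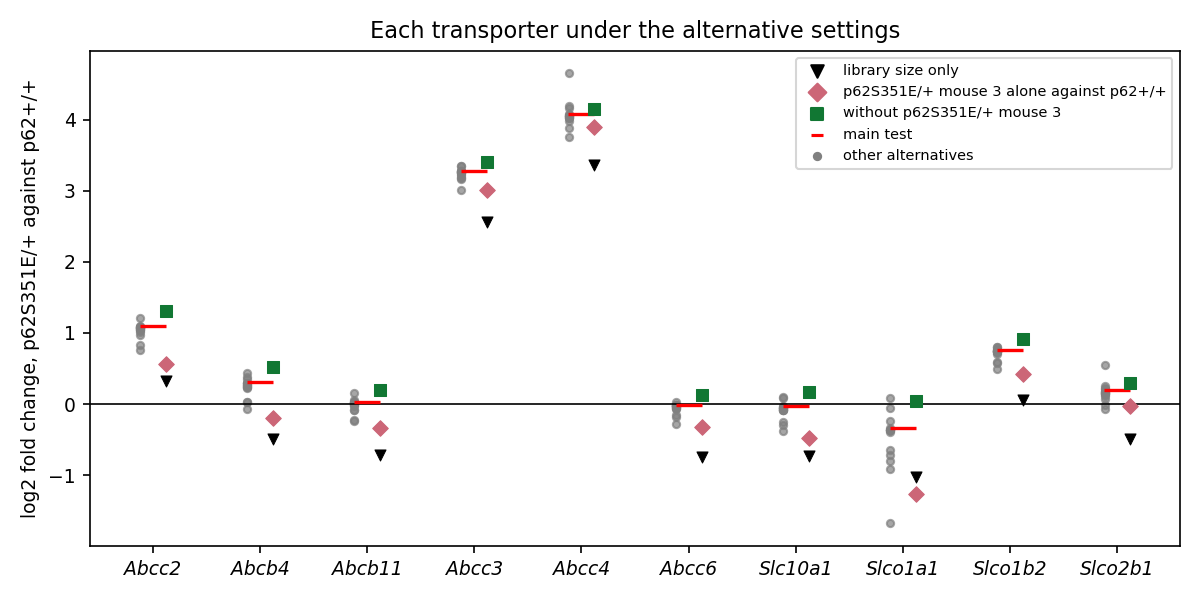
Log2 fold changes of the 10 transporters under the alternative settings, with the reported value as a red bar, library size only as black triangles, p62S351E/+ mouse 3 alone as red diamonds and the test without that mouse as green squares. Abcc3 (2.56 to 3.41) and Abcc4 (3.37 to 4.66) stay far above 0, Abcc2 (0.33 to 1.32) and Slco1b2 (0.06 to 0.92) stay above 0, and Abcb4, Abcb11, Abcc6, Slc10a1, Slco1a1 and Slco2b1 fall on both sides of 0. With library size only the median over all genes tested was -0.68.

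p62S351E/+ mouse 3 stood apart from mice 1 and 2 in some transporters, such as Abcc2, but not in all. Slco1a1 in mouse 3 lay between mice 1 and 2 (5.65 against 1.94 and 24.2 normalized counts). For Slc10a1 mouse 1 was near mouse 3 (91.4 and 79.0), and for Abcb4 mouse 2 was (67.9 and 57.3). Against the p62+/+ mice, mouse 3 alone had log2 fold changes of 3.02 for Abcc3 and 3.90 for Abcc4, close to the values of all 3 mice. Abcc2 (0.57) and Slco1b2 (0.43) came to lower values in it. Abcb4 (-0.20), Abcb11 (-0.33), Abcc6 (-0.32), Slc10a1 (-0.48), Slco1a1 (-1.27) and Slco2b1 (-0.033) were below 0 in this mouse and above 0 (0.52, 0.19, 0.13, 0.17, 0.046 and 0.30) without it. None of these 6 passed the test without mouse 3 (edgeR). Leaving out p62S351E/+ mouse 1 instead also changed signs against the fit of all mice. The values were then -0.074 for Abcb4, -0.083 for Abcb11, 0.094 for Slc10a1 and 0.083 for Slco1a1.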

How the data were processed

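Total RNA of livers from 3 p62+/+ and 3 p62S351E/+ mice was depleted of ribosomal RNA and sequenced as single-end reads. The authors trimmed the reads with Trim Galore, aligned them with STAR (genome mm10) and deposited the expected counts that RSEM estimates for each gene, without normalization. Versions, gene annotation and strand setting are not given in the sources used here. Of the nonzero values 6.45% were not whole, and all were rounded for testing. Genotypes and mouse numbers came from the sample labels.

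The whole table was fitted in R 4.3.3 with edgeR 4.0.16 (filterByExpr with a minimum of 10 counts, TMM scaling, robust quasi-likelihood test, legacy set to FALSE), and p was adjusted over all 5945 genes tested. Alternatives used limma 3.58.1 (voom), DESeq2 1.42.0, other scalings and filters, single mice left out, the mouse number as a block and Xist as a covariate. The tests were checked on simulated counts with the same dispersion for every gene and no library unlike the others. That check therefore does not cover the differences among the p62S351E/+ mice. Ratios within a library used a pseudocount of 0.5 and mean log2 CPM a prior count of 2. Lengths are those of the longest basic coding transcript in GENCODE vM21. The intervals of folds cover the spread between mice as fitted. Nothing in the labels names separate litters, so p-values measure the spread between these samples.

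The 10 transporters and the other gene lists were chosen with earlier results of these data known. All 10 are named, and of each other list the genes called or, where fewer than 6 were called, the 6 with the smallest p, except a gene whose values are left out here.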

Additional observations from a re-analysis of the deposited data

How the results depend on the processing

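Abcc3 and Abcc4 were the transporters called higher in every setting except those named here, and 0 were called lower in any. Requiring 10 counts in every library left 1 called higher (Abcc3), because Abcc4 was not tested. That setting called 2.99% of all genes tested higher. Abcc2 was called as well with limma-voom (log2 fold change 1.07) and without p62S351E/+ mouse 3. These 2 settings called 2.05% and 5.21% of all genes tested higher. The range of Abcc2 with single mice left out was 0.97 to 1.32. With library size only, the values were -0.50 for Abcb4, -0.72 for Abcb11, -0.49 for Slco2b1, -0.39 for Sqstm1 and -0.23 for Rxra. The median over all genes tested was then -0.68. Relative to it Abcb4 was at 0.18, Abcb11 at -0.035 and Slco2b1 at 0.19. For p62S351E/+ mouse 3 alone, assumed to vary like the p62+/+ mice, the values were -0.20 for Abcb4, -0.33 for Abcb11 and -0.033 for Slco2b1. Abcb11 was also below 0 with DESeq2 (-0.0028), with the 3 most abundant genes removed (-0.023), without a filter (-0.0056), with 10 counts in every library (-0.24, where Slco2b1 was at -0.065) and with Xist as a covariate (-0.22). With single mice left out, log2 fold changes ran from -0.074 to 0.52 for Abcb4, -0.083 to 0.19 for Abcb11, -0.15 to 0.13 for Abcc6, -0.38 to 0.17 for Slc10a1, -1.68 to 0.083 for Slco1a1 and -0.014 to 0.55 for Slco2b1. None of these 6 passed the test in any setting, and the cause was not tested. Exporters minus carriers was 0.46 with summed normalized counts, and lay between 0.95 and 1.64 with single mice left out. The added share of Abcc3 and Abcc4 in p62S351E/+ mice was 19.5 percentage points, against 23.0, without division by length.

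The labels number the mice alike in both genotypes, but same-numbered mice are separate animals, and their deviations from the group means correlated at 0.076, -0.091 and -0.0014 for numbers 1, 2 and 3. Not every mouse correlated best with its own number, so no pairing was assumed. With the replicate block Abcc3 was at 3.28 and Abcc4 at 4.16, both still called, and the genes called higher over the whole table went from 50 to 18. The block changed no other call of the 10 transporters. Over the other settings the genes called higher lay between 12, with library size only, and 333, without p62S351E/+ mouse 3, where 975 genes (15.3%) were called lower, against 5 with all mice. The other liver transporters called higher numbered between 0 and 4. The 4 were called without p62S351E/+ mouse 3, where 5.21% of all genes tested were called higher, against 0.841% with all mice. The settings for the other lists, the shares and the exporter contrast without Slco1a1 were chosen later, with the data in view. Depth limits Slco1a1 and Abcc4 most.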

Other observations

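The 10 transporters belong to larger gene families in the table. Of 50 genes named Abc, 27 were tested, and the 4 called higher were Abcc3, Abcc4, Abcg5 and Abcg8, with 0 lower, against 0.841% and 0.0841% of all genes. The median log2 fold change of these 27 was 0.31. Of 15 Slco genes 5 were tested and of 7 Slc10a genes 2, and edgeR called 0 in both families. At an unadjusted p below 0.05, 2 Slco and 0 Slc10a genes were higher and 0 lower, against 9.02% and 5.55% of all genes. Abca6, an ABC gene of the lipid-carrier class, was chosen after its values were seen. It had 77.8, 89.3 and 66.5 normalized counts in the p62+/+ mice and 141, 197 and 132 in the p62S351E/+ mice, a log2 difference of 1.01 (adjusted p = 0.116, edgeR). Abca2 and Slc22a17 had 7.62 and 17.6, and 1.90 and 0 normalized counts in p62S351E/+ mice 1 and 2, but 49.6 and 44.2 in mouse 3, close to the p62+/+ means of 56.1 and 49.7. The brain markers of these libraries followed the same division between mice, and their part in these values was not tested.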
